A study of Mus musculus with 51 samples.

Results

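This report describes how the map of H3K27ac peaks differed between early astrocytes (eA, day 1 of differentiation) and late astrocytes (lA, day 5), which the labels call mature. The members are the peaks on chromosomes 1 to 19 of both lists. An eA peak was called lost if no lA peak overlapped it by 1 bp or more, an lA peak was called gained if no eA peak overlapped it, and the others were called kept. The 2 lists held 171893 peaks on these chromosomes. The 6 peak lists of H3K27ac and H3K4me1 that were read held 803595 peaks, with those on chromosomes X and Y included. Of 81348 eA peaks, 22841 (28.1%) were lost and 58507 were kept. Of 90545 lA peaks, 30757 (34.0%) were gained and 59788 were kept.

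The cells came from embryonic stem cells of C57/BL-6 mice. They were first turned into astrogliogenic neural precursor cells (aNPCs), which were grown with N2, EGF and FGF-2, and then moved to DMEM with serum and leukemia inhibitory factor (LIF) for 1 day or 5 days. The eA, lA and aNPC samples carried no knockdown or genetic change. The model is a culture from stem cells and not tissue, and each stage was profiled in 2 biological replicates that the authors merged before they called peaks. With 1 merged list per stage, no difference between the stages has a replicate error and no p-value is given. Intervals in brackets are 95% Wilson intervals that cover counting error over peaks only, and peaks are not replicates of a stage. The sequencing depth of the merged libraries is unknown here. Peaks lay at the promoter of Gfap and at 21 of 30 promoters of astrocyte genes at both stages, while 9 of 10 promoters of microglial genes had none at either. Over all 21275 coding genes, 10116 had a promoter peak at both stages and 9527 at neither.

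Acetylation of histone H3 at lysine 27 is placed by the acetyltransferases p300 and CBP and marks promoters and enhancers in use. Monomethylation at lysine 4 (H3K4me1) marks enhancers whether or not they are acetylated, and is known to appear before acetylation at many of them. When EGF and FGF-2 are replaced by serum and LIF, neural precursors of this kind are known to leave the cell cycle and to switch on astrocyte genes such as Gfap, in part through the LIF receptor, gp130 and Stat3. In a culture, fewer cells with a mark and less of the mark per cell cannot be told apart.

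The strongest lost and gained peaks differed in the CpG content of their summits. The 200 bp around the summit are shown for 4 of the 5 lost and 4 of the 5 gained peaks with the highest −log10 q (the significance that the peak caller gave a peak in its own list) among those that lay more than 1 kb from any peak of the other stage and whose window held no untranslated exon sequence. Those nearest to Tmem181b-ps and 4930423O20Rik are not printed. The 8 windows are printed because the lost examples are rich in CpG dinucleotides and the gained examples are poor in them. All are read 5′ to 3′ on the plus strand of mm9, with each CG in capitals.

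Lost, Psmb3, chr11:97564868-97565067: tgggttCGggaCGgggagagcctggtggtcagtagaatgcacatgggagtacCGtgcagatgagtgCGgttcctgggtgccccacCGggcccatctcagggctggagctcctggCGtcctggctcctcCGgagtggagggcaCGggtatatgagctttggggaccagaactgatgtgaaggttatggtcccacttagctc
Lost, Fbxw8, chr5:118604991-118605190: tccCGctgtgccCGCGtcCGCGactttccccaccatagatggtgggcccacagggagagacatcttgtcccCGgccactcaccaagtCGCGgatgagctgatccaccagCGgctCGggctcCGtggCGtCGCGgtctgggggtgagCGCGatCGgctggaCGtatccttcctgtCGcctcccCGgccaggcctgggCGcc
Lost, Zfp868, chr8:72108769-72108968: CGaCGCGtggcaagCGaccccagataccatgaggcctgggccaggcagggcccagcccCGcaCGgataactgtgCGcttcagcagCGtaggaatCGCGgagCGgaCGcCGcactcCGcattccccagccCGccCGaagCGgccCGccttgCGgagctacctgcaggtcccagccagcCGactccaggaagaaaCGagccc
Lost, Hgsnat, chr8:27086713-27086912: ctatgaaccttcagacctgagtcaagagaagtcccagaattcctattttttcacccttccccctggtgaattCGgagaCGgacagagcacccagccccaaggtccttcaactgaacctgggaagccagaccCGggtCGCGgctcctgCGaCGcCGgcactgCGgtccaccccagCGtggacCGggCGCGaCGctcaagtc
Gained, Scn7a, chr2:66576021-66576220: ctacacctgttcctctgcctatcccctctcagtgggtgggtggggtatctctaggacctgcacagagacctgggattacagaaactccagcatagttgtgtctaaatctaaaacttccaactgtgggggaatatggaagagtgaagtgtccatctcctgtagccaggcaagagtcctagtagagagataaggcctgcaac
Gained, Wdr72, chr9:74255727-74255926: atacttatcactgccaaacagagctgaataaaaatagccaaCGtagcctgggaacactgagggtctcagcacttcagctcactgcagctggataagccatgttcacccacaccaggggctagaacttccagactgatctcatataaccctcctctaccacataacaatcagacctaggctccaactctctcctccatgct
Gained, Slitrk5, chr14:112144190-112144389: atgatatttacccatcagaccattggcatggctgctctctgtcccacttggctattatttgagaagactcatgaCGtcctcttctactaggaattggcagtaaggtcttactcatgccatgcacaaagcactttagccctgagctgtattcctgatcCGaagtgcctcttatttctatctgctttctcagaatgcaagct
Gained, Actl7b, chr4:56318352-56318551: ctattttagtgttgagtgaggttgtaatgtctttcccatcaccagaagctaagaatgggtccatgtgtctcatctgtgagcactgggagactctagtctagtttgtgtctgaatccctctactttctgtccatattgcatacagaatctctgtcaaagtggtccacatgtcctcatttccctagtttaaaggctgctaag

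The lost windows held 8 CG at Psmb3, 21 at Fbxw8, 21 at Zfp868 and 14 at Hgsnat. The gained windows held 0 at Scn7a, 1 at Wdr72, 2 at Slitrk5 and 0 at Actl7b. Psmb3 codes for a proteasome subunit and Hgsnat for a lysosomal acetyltransferase, and their lost peaks lay in introns 253 and 361 bp downstream of the start site. The Fbxw8 peak lay in an exon 320 bp downstream of the start site. The Zfp868 peak was intergenic, 34.4 kb from the nearest coding start site. The Scn7a peak lay in an intron 46.8 kb from the start site of this sodium channel gene. The gained peaks named by Wdr72, Slitrk5 and Actl7b were intergenic, and the nearest coding start sites were 297.8, 66.2 and 435.8 kb away.

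Over all peaks the contrast was smaller than in these windows. The median number of CpG in 200 bp was 2 at lost and 1 at gained peaks, and the mean was 3.96 and 1.86. The mean was 5.25 at kept peaks of the eA list, 4.93 at kept peaks of the lA list and 1.69 in 478730 windows of the same length spaced over the genome. Windows with 10 CpG or more made up 9.41% of lost peaks, 0.380% of gained peaks and 1.00% of the genome windows. Away from start sites, by more than 1 kb, the means were 2.59 at lost peaks and 1.81 at gained peaks, and 2.60 and 2.54 at kept peaks, so that most of the excess of CpG in the lost peaks was found near start sites. The median GC content was 48% at lost, 47.5% at gained and 50% at kept peaks, against 42% in the genome windows.

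The interval of the lost share was 27.8 to 28.4% and that of the gained share 33.7 to 34.3%. Lost peaks covered 5.93 Mb and gained peaks 10.2 Mb, while kept peaks covered 37.3 Mb in the eA list and 38.8 Mb in the lA list. The lA list was the longer one. When both lists were cut to the same number of peaks by −log10 q, 24972 peaks were lost and 24359 gained, so that the order turned and lost peaks were the more numerous. The lost share ran from 26.6% to 29.6% over the chromosomes, and the gained share from 28.6% on chromosome 11 to 38.1% on chromosome 3.

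Lost and gained peaks were narrow and weak members of their lists. The median width was 211 bp for lost and 279 bp for gained peaks, against 525 and 560 bp for kept peaks of the eA and lA lists. The median −log10 q was 5.29 for lost and 14.5 for kept peaks of the eA list, and 5.20 for gained and 12.3 for kept peaks of the lA list. When each list was cut into 10 equal groups by −log10 q, 59.8% of the weakest and 0.529% of the strongest group of eA peaks were lost. In the lA list the gained share ran from 69.4% in the weakest to 0.0883% in the strongest group. The highest −log10 q in their own lists was 156.4 among lost peaks and 41.9 among gained peaks. Depth, which sets how many weak peaks a caller finds, is unknown for both lists, and its part in these counts was not tested.

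**Figure D1:**
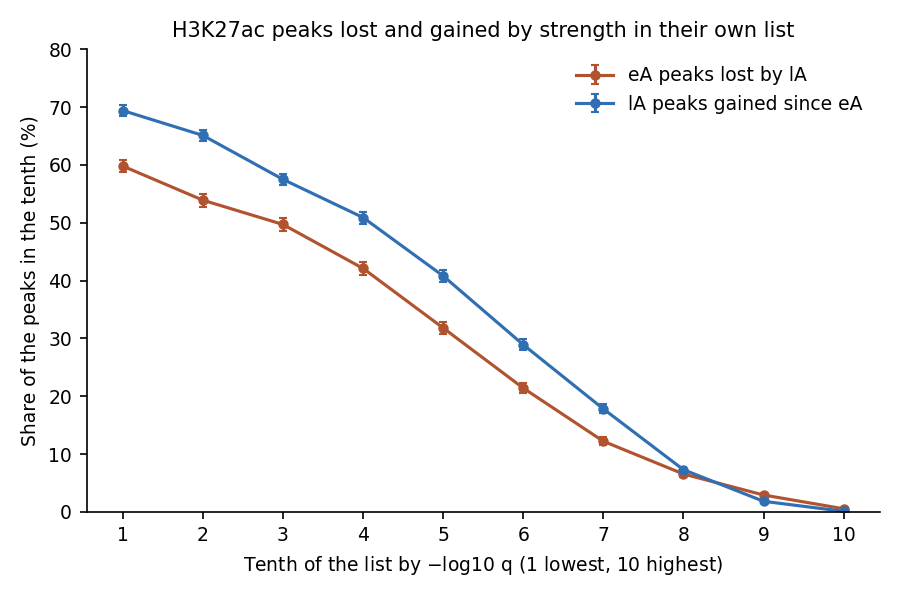
Share of H3K27ac peaks (y axis, percent) that was lost in the eA list and gained in the lA list, by group of −log10 q within each list (x axis, 10 groups of equal size, weakest first), with bars for the 95% Wilson interval. Both curves fall without a break, from 59.8% and 69.4% in the weakest group to under 1% in the strongest.

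Many changed peaks lay beside a peak of the other stage. The median distance to the nearest peak of the other list was 2219 bp for lost and 4653 bp for gained peaks. Within 1 kb of such a peak lay 10055 lost and 11659 gained peaks, while 12786 lost and 19098 gained peaks were farther away and are called isolated below. The kept peaks formed 53375 shared regions, of which 43569 (81.6%) joined 1 eA peak with 1 lA peak. In 4992 regions (9.35%) 1 eA peak met several lA peaks, and in 3775 (7.07%) several eA peaks met 1 lA peak. In the simple pairs the lA peak was the wider one 23515 times and the eA peak 19946 times, and the median distance between their summits was 78 bp. At the edge of the rule, 370 eA and 377 lA peaks missed a peak of the other list by at most 20 bp, with a median −log10 q of 5.00 and 5.03. Another 418 eA and 395 lA peaks overlapped one by 20 bp or less, with medians of 5.00 and 5.10.

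Loss and gain differed in where they fell in genes. A promoter was taken as the stretch between 1 kb before and 100 bp after a coding start site. Peaks centred in promoters made up 7.79% [7.45 to 8.14] of lost peaks but 2.18% [2.03 to 2.35] of gained peaks, against 12.7% and 13.7% of kept peaks. Intergenic peaks made up 34.9% of lost and 51.6% of gained peaks, introns held 51.2% and 44.2%, and exons 6.10% and 1.97%. Seen from the lists, 19.3% of the 9206 promoter peaks of eA were lost, while 7.61% of the 8835 promoter peaks of lA were gained. Of the intergenic peaks of lA, 43.2% were gained. The median distance to the nearest start site was 24.0 kb for lost and 43.3 kb for gained peaks.

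Close to start sites the loss lay on both sides. From 500 to 100 bp upstream 22.9% of eA peaks were lost, from 100 bp upstream to 100 bp downstream 17.6%, and from 100 to 500 bp downstream 17.5%. The gained share in the same steps was 9.26%, 3.90% and 2.54%. From 1 to 5 kb downstream the lost and gained shares were 31.6% and 31.7%. Among the 100 strongest lost peaks, 72 lay 100 to 1000 bp downstream of a start site, against 1 of the 100 strongest gained peaks. Peaks near start sites were strong within each list. In the eA list the median −log10 q was 45.7 for peaks within 1 kb of a start site and 7.85 for other peaks, and in the lA list 20.2 and 7.35. These values were not compared between the lists, and the part of enrichment at start sites in the loss there was not tested.

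**Figure D2:**
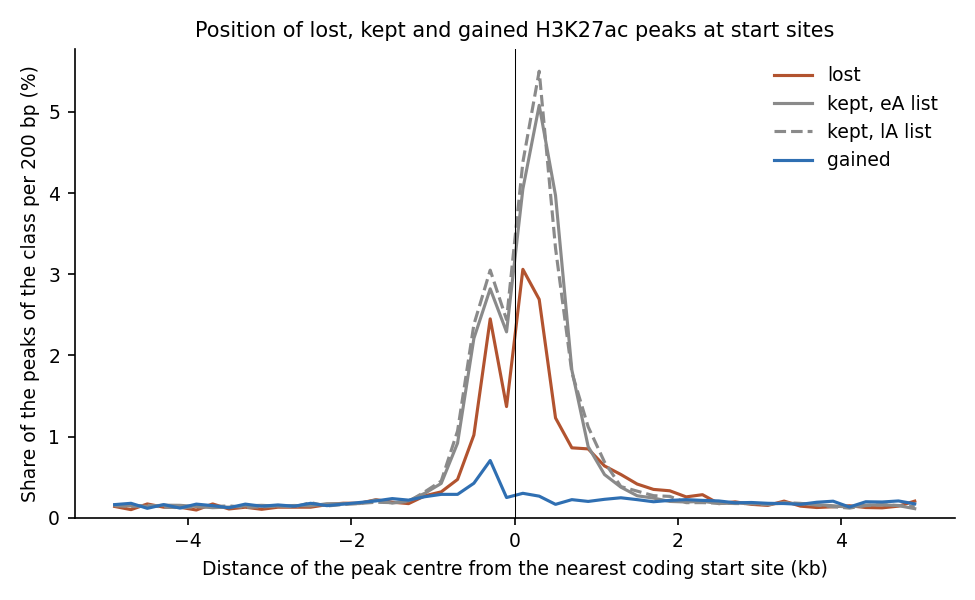
Share of the peaks of each class per 200 bp (y axis, percent) by distance of the peak centre from the nearest coding start site (x axis, kb, downstream to the right), for lost peaks, gained peaks and the kept peaks of both lists. Kept and lost peaks pile up on both sides of the start site with a dip just upstream of it, and gained peaks show only a low rise upstream.

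The 10 strongest lost peaks all lay 129 to 404 bp from a coding start site. They included Rpsa, a ribosomal protein gene, with a −log10 q of 156.4, and Mrpl3, of the mitochondrial ribosome, with 113.1. All 10 had an aNPC H3K27ac peak, and 7 of them lay under 1 kb from a peak of the other stage. The 10 strongest gained peaks had as nearest genes Scn7a (41.9), Wdr72 (39.1), 4930423O20Rik (37.9), Slitrk5 (37.3), Actl7b (36.0), Get4, Gm10110 (both 35.7), Wt1 (33.5), Mettl7a3 (32.6) and Trim2 (32.5). Those of Wdr72, Slitrk5, Actl7b and Gm10110 (288.0 kb) lay over 50 kb from the start site and are not in the counts per gene below. The peak nearest to Slitrk5 had an aNPC H3K27ac peak and the others had none, and all 10 had an H3K4me1 peak in lA.

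The other 4 lists, which the rule did not use, set the lost and gained peaks apart from each other. The share with an H3K27ac peak in aNPC was 37.0% [36.4 to 37.7] for lost and 18.4% [18.0 to 18.9] for gained peaks, against 63.7% and 65.4% for kept peaks. An aNPC H3K4me1 peak was found at 70.1% of lost and 40.6% of gained peaks. At eA, H3K4me1 lay at 78.1% [77.6 to 78.6] of the peaks that would be lost and at 66.2% [65.7 to 66.7] of the sites where H3K27ac was yet to be gained. At lA it lay at 72.7% of lost and 75.8% of gained peaks. Among isolated peaks the eA values were 79.3% and 62.9%, in the same order. Among peaks with a −log10 q above 15 in their own list the order turned, with H3K4me1 at eA at 66.0% of 1448 lost and 78.5% of 646 gained peaks. This cut does not fall at the same rank in both lists.

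Followed over the 3 stages, 58.0% of lost peaks had H3K4me1 at each of them, and 11.1% had it at eA but not at lA. Most sites that lost their H3K27ac peak thus had an H3K4me1 peak at lA. Of gained peaks, 35.8% had H3K4me1 at all 3 stages, 23.1% had it at eA and lA but not in aNPC, and 15.7% had it at lA only. A further 16.2% of gained and 13.4% of lost peaks had no H3K4me1 peak at any stage.

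**Figure D3:**
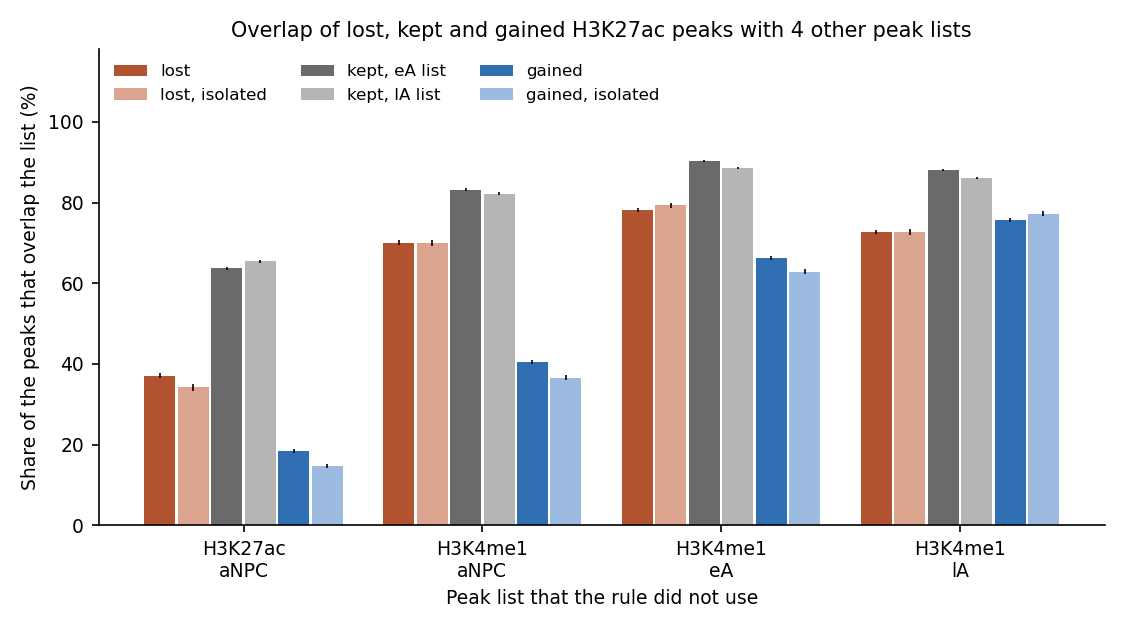
Share of lost, kept and gained H3K27ac peaks (y axis, percent) that overlap a peak of the aNPC H3K27ac list or of the H3K4me1 lists of aNPC, eA and lA (x axis), with bars for the 95% Wilson interval; isolated peaks lie more than 1 kb from any peak of the other stage. Gained peaks lie below lost and kept peaks in both aNPC lists, at 18.4% and 40.6%, or 14.8% and 36.6% if isolated, and are at 75.8%, or 77.2% if isolated, for H3K4me1 in lA.

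Peaks of like strength were compared within each list, since weak peaks overlap less. Among eA peaks with a −log10 q from 5 to 8, an aNPC H3K27ac peak was found at 35.3% of lost and 40.8% of kept peaks. Among lA peaks in the same range it was found at 19.2% of gained and 53.8% of kept peaks. For H3K4me1 in aNPC the values were 72.9% and 74.1% in the eA list and 41.3% and 79.6% in the lA list. In this range lost peaks were closer to kept peaks of their own list in both aNPC marks than gained peaks were. Above 15, the share with aNPC H3K27ac was 70.6% of 1448 lost and 83.6% of kept peaks, and 16.3% of 646 gained and 78.5% of kept peaks. Kept peaks were wider than changed peaks, and the part of width in these shares was not tested.

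The shares of short motifs in lost and gained peaks were close, and several differences changed sign or size with the peaks or windows taken. The windows of 200 bp were searched on both strands for the exact letters of 16 motifs. The RUNX heptamer TGTGGTT was found in 3.81% [3.57 to 4.07] of lost and 4.37% [4.15 to 4.60] of gained peaks, and in 4.66% of genome windows. The lead of gained peaks, 0.561 points with a 95% margin of 0.337, was 0.303 at equal GC content and 0.331 among isolated peaks. It was 0.998 in windows of 500 bp and 0.979 among peaks at or above the median −log10 q of their list. The TEAD hexamer GGAATG was found in 10.9% [10.5 to 11.3] and 12.2% [11.9 to 12.6], and in 10.8% of genome windows. The AP-1 heptamer TGACTCA was found in 4.10% and 4.06%, with 3.16% in the genome, but gained peaks led by 1.46 points among peaks at or above the median −log10 q of their list and by 0.696 in windows of 500 bp. The TEAD lead of gained peaks, 1.31 points, grew to 3.70 points among the same stronger peaks and fell to 0.860 at equal GC content. In windows of 500 bp it was 2.95, and among isolated peaks 2.16. The half-site of NFI factors, TTGGCA, was found in 13.2% of lost and 11.7% of gained peaks, and in 9.83% of genome windows. The octamer ATTTGCAT of POU factors was found in 1.18% and 0.780%, and TAATTA of LIM and other homeobox factors in 4.41% and 3.76%, both below the genome windows at 1.71% and 7.11%. The TAATTA difference shrank from -0.648 to -0.0985 points (gained minus lost) among the stronger peaks. The ETS heptamer CCGGAAG, which holds a CpG, was found in 1.27% and 0.813%, and its difference changed sign when both classes were brought to the same GC content. The NFI difference vanished in the upper part of the lists by −log10 q, where gained peaks led by 0.158 points.

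Peaks were then given to the nearest coding gene, if they lay in an exon or intron or within 50 kb of its start site. This assigned 18706 lost peaks (81.9%) to 8292 genes and 21566 gained peaks (70.1%) to 7449 genes. Lost but no gained peaks were nearest to 3567 genes, gained but no lost peaks to 2724, and both kinds to 4725. Of 21275 coding genes, 22.6% had more gained than lost peaks and 23.4% had more lost than gained peaks. Long genes and wide gaps between genes collect more peaks, and gene length was not corrected for. A net gain of 10 peaks or more was seen at 100 genes and a net loss of 10 or more at 17, in lists of which the lA list is the longer.

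The genes with the largest net gain were large or lay in large host genes. Park2, which codes for the ubiquitin ligase parkin, had 31 gained and 4 lost peaks, all in its own introns or exons at chr17:11033258-12254519. The 28 gained peaks nearest to Trim32 all lay in Astn2, and the 32 nearest to Lrtm1 overlapped Cacna2d3, a calcium channel subunit gene, so that their nearest start site was not that of the gene around them. Adam12, a metalloprotease gene, had 25 gained and 3 lost peaks, the strongest gained one with a −log10 q of 11.2 at chr7:141104404-141104903. Ntrk3, the gene of the neurotrophin receptor TrkC, had 19 gained peaks and no lost peak, and 12 of the 19 had H3K4me1 at eA. Thrb, which codes for a thyroid hormone receptor, had 21 gained and 3 lost peaks, with the strongest gained peak at 27.6 and the strongest lost peak at 25. These 2 peaks lay 338 and 429 bp from a peak of the other stage. Of the 21 gained peaks 18 were isolated, and of the 3 lost peaks 0. The others were 2010111I01Rik, Fhit, Atxn7l1, Rbms3, Slc24a3 and Kif26b, with 21 to 31 gained peaks and 1 to 9 lost peaks. All 22 gained peaks of Slc24a3 lay inside the gene, and with peaks limited to 10 kb from the start site its net count was -1.

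Among the genes with the largest net loss were Nckap5, Pcdh9 and Mtap2. Nckap5 had 36 lost and 11 gained peaks, all 36 lost ones within the gene, and 28 of them had H3K4me1 at lA as well as 28 at eA. Pcdh9, a protocadherin gene, had 18 lost and 5 gained peaks, 13 of the 18 with an aNPC H3K27ac peak. Mtap2, the gene of the neuronal protein MAP2, had 17 lost and 4 gained peaks, and Odz3, a teneurin gene, had 14 lost and 0 gained. At the start site of Odz3 a lost peak had a −log10 q of 15.2, and the nearest lA peak was 73036 bp away. Qk, which codes for the RNA-binding protein quaking, had 22 lost and 9 gained peaks, and its promoter peak of 27.9 was lost. Glis3 had 26 lost and 15 gained peaks, and Pde4d 28 and 16. Ptn and Etv1 had 15 and 12 lost peaks with 3 and 1 gained. Sfi1 had 15 lost and 0 gained peaks in a single gene body of chr11:3031853-3093466.

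**Figure D4:**
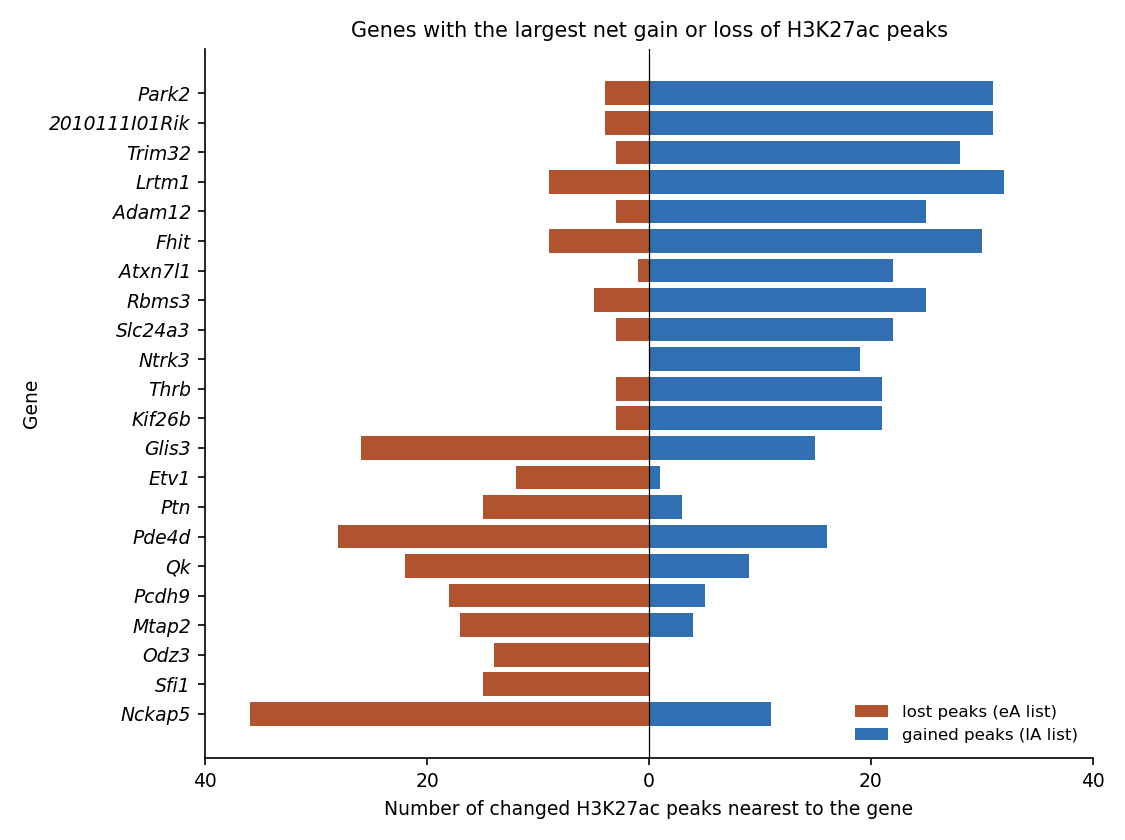
Number of lost peaks (left) and gained peaks (right) nearest to each of the 12 genes with the largest net gain and 10 of the 12 with the largest net loss (x axis, counts; y axis, genes). Ntrk3 has gained peaks only, and Sfi1 and Odz3 have lost peaks only.

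Genes of named groups were counted next, each beside the value over all coding genes, where 53.6% of the changed peaks were gained. Among genes with any changed peak, 43.6% had a net gain and 45.3% a net loss. Over all coding genes, changed or not, the shares were 22.6% and 23.4%. The counts of genes below are out of all genes found in a list, changed or not. Promoters of 1352 genes (6.35%) had a peak at eA only and those of 280 genes (1.32%) at lA only, while 10116 had one at both stages and 9527 at neither. At 279 of the 1352 and 46 of the 280 the promoter held kept peaks only, whose partner at the other stage lay outside it. Of the 1352, 804 also had an aNPC peak, and of the 280, 67 had one.

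Cell cycle genes were mostly on the side of loss. Nearest to the 19 genes were 32 lost and 13 gained peaks, a gained share of 28.9%, and 15 genes had a net loss against 3 with a net gain. The net loss held for 11 to 15 genes over all other settings. Promoter peaks were at eA only for Mki67, Top2a, Ccnb1, Cdk6 and E2f1, and for none of the list at lA only. The lost promoter peak of Top2a, the topoisomerase of dividing cells, had a −log10 q of 16.2, and the nearest lA peak was 16496 bp away. Mki67, the gene of the proliferation marker Ki-67, lost peaks of 9.89 and 7.53 on both sides of its start site, and Cdk6, a G1 kinase, lost 1 of 18.1. Ccnb1, which codes for cyclin B1, lost all 3 of its eA peaks. At E2f1 a peak of 15.8 next to the promoter was kept, and its eA-only call was not made with a promoter of 1 kb on either side, which added Aurkb, Ccnd1 and Mcm2 to the eA-only promoters. By its count of peaks, Ccnd1, which codes for cyclin D1, went the other way with 2 lost and 5 gained peaks. All 19 genes but 1, Ccnd2, had an aNPC promoter peak.

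The sequence around the summit of the lost Top2a peak is shown as that of a cell cycle promoter, with 7 CpG and none of the 16 motifs. That of the lost Osmr peak is shown because it had the highest −log10 q of the lost peaks at eA-only promoters of the lists, with 14 CpG. Both Il6 windows are shown because they are the gained promoter peaks with the highest values of the reactive list besides C1s, with 0 and 3 CpG, and the one nearer to the start site holds the AP-1 letters. Capitals mark CG as above.

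Top2a, lost, chr11:98884957-98885156: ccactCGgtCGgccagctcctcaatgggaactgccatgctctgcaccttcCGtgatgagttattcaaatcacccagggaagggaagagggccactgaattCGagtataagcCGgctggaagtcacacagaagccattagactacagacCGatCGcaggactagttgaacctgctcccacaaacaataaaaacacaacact
Osmr, lost, chr15:6823992-6824191: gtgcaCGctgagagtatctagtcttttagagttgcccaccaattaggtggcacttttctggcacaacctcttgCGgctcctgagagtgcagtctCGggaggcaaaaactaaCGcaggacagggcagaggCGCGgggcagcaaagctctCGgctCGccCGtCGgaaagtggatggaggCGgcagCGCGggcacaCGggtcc
Il6, gained, chr5:30338964-30339163: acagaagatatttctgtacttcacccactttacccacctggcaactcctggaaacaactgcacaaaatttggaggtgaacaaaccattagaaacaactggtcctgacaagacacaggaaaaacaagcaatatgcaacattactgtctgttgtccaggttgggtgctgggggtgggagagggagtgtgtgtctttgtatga
Il6, gained, chr5:30339345-30339544: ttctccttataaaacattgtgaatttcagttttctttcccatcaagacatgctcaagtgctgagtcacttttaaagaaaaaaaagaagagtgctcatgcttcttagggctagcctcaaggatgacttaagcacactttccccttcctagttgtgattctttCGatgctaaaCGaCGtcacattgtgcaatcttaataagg

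CDK inhibitors and other growth arrest genes had 20 lost and 26 gained peaks, with a net gain at 6 of 13 genes and a net loss at 4, and a gained share of 56.5%. Cdkn1c, the gene of the inhibitor p57, had 6 gained and 2 lost peaks, and Gas1 had 4 gained and 0 lost. Gadd45a had 7 lost and 3 gained peaks.

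Genes of gp130, JAK and STAT signalling, the pathway of LIF, were split. They had 31 lost and 33 gained peaks, with a net gain at 8 of 17 genes and a net loss at 6. Osmr, the receptor of oncostatin M and a partner of gp130, lost its promoter peak, whose −log10 q of 54.6 was high for a lost peak, and Lif itself lost one of 13.6. No aNPC H3K27ac peak was at either promoter. Stat3 had 2 lost, 4 kept and 0 gained peaks, Jak2 5 lost and 1 gained, and Socs3, a feedback inhibitor of the pathway, 1 lost, 12 kept and 3 gained. The promoters of Stat3 and Socs3 had peaks at both stages.

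Among AP-1 and Atf genes, 17 peaks were lost and 16 gained. Fosl1, Fosb and Junb had a promoter peak at eA only, and Atf3 had 4 gained and 0 lost peaks. Fosl1 had no kept peak and lost both of its own, of which the promoter peak had a value of 3.72, and its call was not made with a −log10 q of 5 or more, nor that of Fosb with a promoter of 2 kb on either side. The call for Junb rested on a kept peak of 59.9 that ended short of the promoter at lA and was not made with a promoter of 1 kb on either side.

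The Runx genes had 8 lost and 30 gained peaks, a gained share of 78.9%, and 18 of the 30 belonged to Runx2, which codes for a Runt-domain transcription factor. Runx2 had 19 kept peaks and 1 lost peak, and 16 of its 18 gained peaks lay within the gene, among them the 1 at its distal promoter. The gene has 2 clusters of start sites. At the distal cluster, from chr17:44951175 to chr17:44951576, neither aNPC nor eA had an H3K27ac peak, and lA had one of 10.8 at chr17:44951488-44951760. H3K4me1 peaks of 16.5 and 21.5 lay there at eA and lA. At all 5 proximal start sites both stages had H3K27ac peaks, with values up to 53.3 at eA and 40.2 at lA. The other gained peaks of Runx2 had a −log10 q from 1.93 to 8.21, so that most were weak. Runx1 had 3 lost and 4 gained peaks, and Runx1t1 0 lost and 6 gained.

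Matrix and adhesion genes were mostly on the side of gain. Nearest to the 25 genes were 34 lost and 87 gained peaks, a gained share of 71.9%, and 18 genes had a net gain against 4 with a net loss. With peaks limited to 10 kb from a start site, 8 had a net gain and 3 a net loss, so that the gain lay mostly at distance. Col8a1, a collagen gene, had 10 gained, 2 kept and 0 lost peaks, the strongest at 16.2 and 7 of the 10 with H3K4me1 at lA against 3 at eA. Postn, which codes for periostin, had 5 gained peaks and no other peak at either stage. Thbs1, the gene of thrombospondin 1, had 8 gained and 2 lost peaks, of which a lost one of 23.4 lay 234 bp from its start site. Col3a1 had 6 gained and 1 lost peak, and Col4a2 9 and 1. Lamc1, with 9 lost and 6 gained peaks, and Itga5, with 2 lost and 0 gained, were among the exceptions. At promoters, Col6a1 and Itga7 had a peak at eA only and no gene of the list at lA only. The Col6a1 call rested on a kept peak of 8.85 and was not made with a promoter of 1 kb on either side, and with 2 kb on either side no gene was at eA only and 2, Col1a2 and Col3a1, at lA only.

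TGF-beta and BMP genes had 56 lost and 81 gained peaks, with a net gain at 13 of 24 genes and a net loss at 8. Ltbp1, which codes for a protein that binds latent TGF-beta, had 17 gained, 8 kept and 0 lost peaks. Smad3, a signal transducer of TGF-beta, had 9 gained and 2 lost. Smad7, an inhibitor of the pathway, had 13 lost and 5 gained peaks, the strongest lost one at 35.8. Tgfb1 itself lost its only peak, at 10.2, with 0 gained. Tgfbr1, a receptor gene, lost a peak of 85.5 that lay 58 bp from its start site and 208 bp from an lA peak.

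Genes of mature astrocyte identity had more lost than gained peaks. The 30 genes had 242 kept, 93 lost and 70 gained peaks, against 48134, 18706 and 21566 for all coding genes, and 16 had a net loss against 8 with a net gain. At 21 of the 30 promoters a peak was found at both stages, and at 6 at neither, among them Aldh1l1, S100b and Kcnj10. Gfap, the filament gene that defines astrocytes in culture, had 3 kept peaks and no changed one. Aqp4, the water channel gene, had 10 gained, 20 kept and 3 lost peaks and a weak gained promoter peak of 5.08. Its lA-only promoter call was not made with a promoter of 2 kb on either side, since a kept peak lay 1176 bp upstream of its start site, with a value of 13 at lA. Slc1a3, a glutamate transporter gene, had 5 lost and 1 gained peak, and Slc4a4, a bicarbonate transporter gene, 9 and 4. The nuclear factor I genes, which act in gliogenesis, had 15 lost and 11 gained peaks at Nfia, 10 and 7 at Nfib, and 6 and 1 at Nfix. Apoe lost both of its promoter peaks, at 9.75 and 5.80, and its eA-only call was not made with a promoter of 2 kb on either side.

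Reactive and inflammatory genes had 41 lost and 49 gained peaks, with a net gain at 8 of 23 genes and a net loss at 9. Il6, the gene of the cytokine interleukin 6, had 6 gained, 1 kept and 0 lost peaks, and gained promoter peaks of 8.50 and 7.86. C1s, a complement protease gene with 2 lost and 1 gained peak, gained a promoter peak of 8.54 with no eA peak within 43676 bp. Ptx3, which codes for a pentraxin, had 11 gained and 2 lost peaks, all within the overlapping gene Veph1, and the strongest gained one of 20.9 lay 3543 bp from its start site. On the other side, the promoters of the chemokine genes Ccl2 and Cxcl12 and of Osmr had a peak at eA only. Nfkb1 had 8 lost and 4 gained peaks, Nfkb2 3 and 0, and Relb 3 and 0, which all code for NF-kB subunits.

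Notch genes had 30 lost and 39 gained peaks, with a net gain at 8 of 18 genes and a net loss at 6. Among them were Jag1, a ligand, at 5 lost and 8 gained, and Hes1, a target, at 4 and 7. The only peak of Dll3, another ligand, was a lost promoter peak of 5.58, and that of Hes5 was also lost. In the Hippo list 33 peaks were lost and 42 gained, with a net gain at 7 of 14 genes and a net loss at 3. The targets Ctgf and Cyr61 had 7 and 6 gained peaks with 2 and 1 lost, and Tead1, a transcription factor of the pathway, had 11 lost and 6 gained. Lipid and cholesterol genes had 39 lost and 30 gained peaks, with a net gain at 4 of 19 genes and a net loss at 7. Scd2, a desaturase gene, had 7 lost, 10 kept and 0 gained peaks, and Scd1 3 lost and 0 gained.

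**Figure D5:**
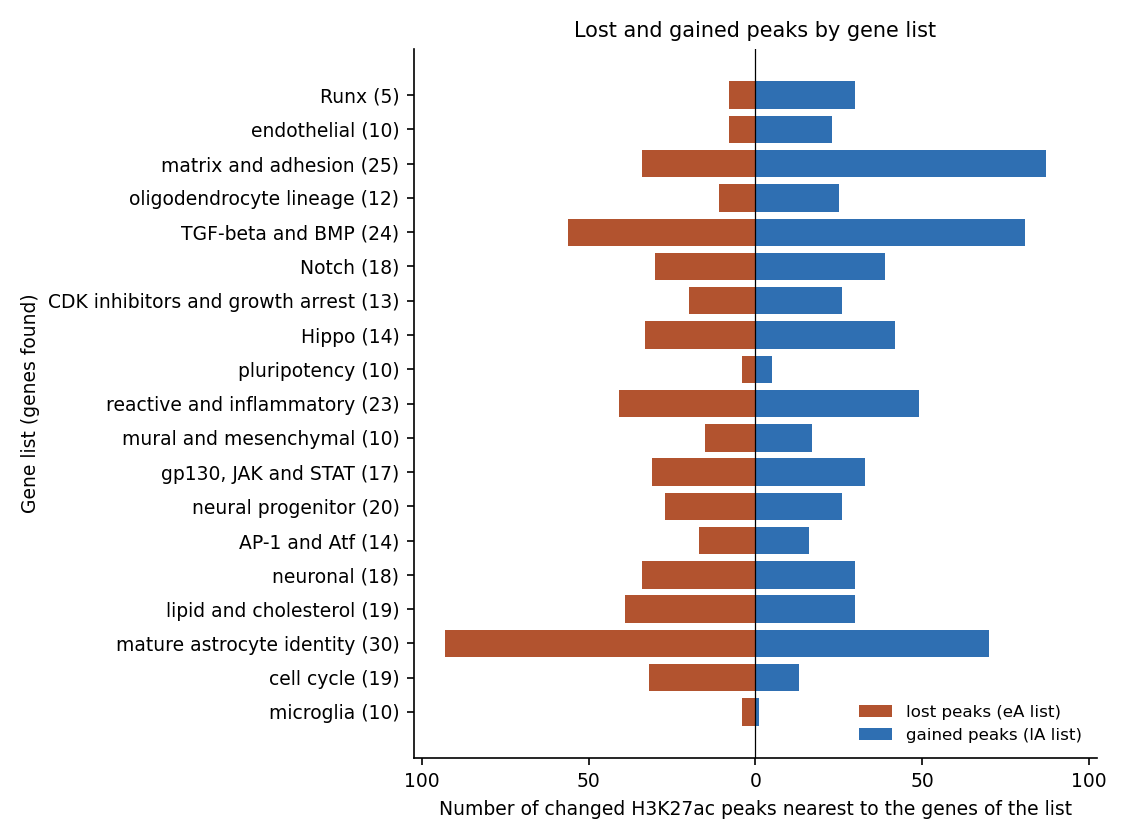
Number of lost (left) and gained (right) H3K27ac peaks nearest to the genes of each list (x axis, counts; y axis, lists with the number of genes found), ordered by the gained share of the changed peaks. The Runx, endothelial and matrix lists are at the top, with gained shares of 78.9%, 74.2% and 71.9%, and the cell cycle and microglia lists at the bottom, with 28.9% and 20%. The microglia share rests on 4 lost peaks and 1 gained peak only.

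Markers of other cell types were counted beside these groups. Progenitor genes had 27 lost and 26 gained peaks and neuronal genes 34 and 30. Endothelial genes had 8 lost and 23 gained peaks, with a net gain at 6 of 10 genes, and oligodendrocyte genes 11 and 25, with a net gain at 6 of 12. Mural and mesenchymal genes had 15 and 17. Erg, an endothelial transcription factor gene, had 8 gained and 3 lost peaks and a promoter peak of 3.85 at lA only, a call that was lost with a −log10 q of 5 or more and with equal list lengths. Flt1, which codes for a VEGF receptor, went the other way with 4 lost and 0 gained peaks and a promoter peak at eA only. Cldn5, Tie1 and Sox17 had no peak at either stage. In the oligodendrocyte list Enpp6 had 7 gained and 1 lost peak, and Mag, Mobp and Gpr17 had none. At neither stage did a promoter peak lie at 13 of 18 neuronal, 10 of 12 oligodendrocyte, 9 of 10 microglial and 7 of 10 endothelial genes. The same held for 7 of 10 mural and mesenchymal genes, for 4 of 20 progenitor genes and for 9527 of all 21275 coding genes. The share of these cells in the cultures and its part in the gained peaks was not tested.

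The sites of the ChIP-qPCR primer pairs of the study were looked up in both lists. All 44 pairs fell at 1 position of mm9 each. At 25 both stages had a peak, at 7 only eA, at 1 only lA and at 11 neither, among them the intergenic control. The counts pool sites predicted for Nfia, Atf3 or Runx2 with promoters of astrocyte genes and were not split by factor. The pairs named Glast and Glt1 fell at the same position, which is thus counted 2 times among the 25, and the pair named Tgfa fell 10.2 kb from the start site of Scara5. The 7 eA-only sites were those of Nfasc, Podn, Lrrc4, Ston2, C1qtnf1, Cav3 and the promoter of Sox9, and their −log10 q ran from 4.0 at Lrrc4 to 17.3 at Podn. The lA-only site was that of Fzd8, with 7.33. The Sox9 product lay 45 bp from the nearest lA peak, the Ston2 product 217 bp, and the Cav3 product 10392 bp. At Gfap the product lay in peaks of 174.7 at eA and 117.8 at lA, which rank within their own lists and were not compared.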

How the data were processed

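H3K27ac ChIP-seq (antibody of Abcam) was read from eA and lA cultures, 2 replicates each, and aNPC H3K27ac and H3K4me1 lists were used beside it. The authors mapped reads to mm9 with Bowtie, used SAMtools 0.1.19, merged the replicates and called peaks with MACS2 without an input control. The deposited columns hold a score, a fold enrichment, a −log10 p and −log10 q, and the summit position. The −log10 q was compared within 1 list only, and peaks were taken as strong or weak by their own list. Of 51 samples in the series, 8 could not be given a group, and RNA and knockdown samples were not analysed here.

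Peaks were matched by an overlap of 1 bp or more. Genes were taken from GENCODE release M1 on mm9, with 142 models joined to another of the same symbol and 43997 coding start sites. A promoter ran from 1 kb upstream to 100 bp downstream, and a peak's place was read at its centre. Named genes are the 12 with the largest net gain and the 12 with the largest net loss, those of the 10 strongest lost and gained peaks, members of 19 lists with a promoter peak at 1 stage or the most changed peaks, and those with ChIP-qPCR primers. Sequence windows on chromosome 18 were not printed. Members and lists were chosen with earlier results of these data known. Python 3.11.15, NumPy 2.4.6, pandas 2.3.3, SciPy 1.17.1, matplotlib 3.10.9, bedtools 2.31.1 and samtools 1.23.1 were used. Overlaps were tested on simulated peaks and checked against bedtools. Alternatives were stricter lists, equal list lengths, other overlap rules, other gene distances and other promoters; for motifs, isolated or stronger peaks were chosen after seeing the data. Results of a few genes are not reported here.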

Additional observations from a re-analysis of the deposited data

Results flagged for a closer look

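Peaks on the sex chromosomes were outside the comparison and showed a change as well. On chromosome X, 648 of 2041 eA peaks (31.7%) were lost and 702 of 2123 lA peaks (33.1%) were gained. On chromosome Y, 16 of 44 eA peaks (36.4%) were lost and 9 of 32 lA peaks (28.1%) were gained.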

How the results depend on the processing

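No paired analysis was possible because the replicates of each stage were merged before peaks were called, and for the same reason no replicate could be left out. The order of the main counts turned with equal list lengths, where 24972 peaks were lost and 24359 gained. The values below are given in the order of the share of lost and of gained peaks with eA H3K4me1 and the share of lost and of gained peaks with aNPC H3K27ac, in percent. With a −log10 q of 5 or more in both lists they were 82.3, 73.9, 45.2 and 22.2. With that minimum on the classified peak only, 13169 peaks were lost and 17098 gained, and the shares were 79.6, 69.6, 43.3 and 19.4. With equal list lengths they were 79.1, 67.8, 37.7 and 19. When a peak was shared if its summit lay in a peak of the other list they were 80.9, 71.6, 39.5 and 23.0, and when 50% of its width was covered 80.9, 72.7, 40.9 and 23.4. When a peak within 500 bp counted as shared, 14554 peaks were lost and 21802 gained, with 78.5, 62.4, 34.7 and 15.1. Within 1 kb, chosen after seeing the data, 12786 were lost and 19098 gained, with 79.3, 62.9, 34.2 and 14.8. Lost peaks stayed above gained peaks in both marks in these settings, but not in eA H3K4me1 above a −log10 q of 15. Among motif differences (gained minus lost, in points) whose main interval left out 0, those that changed sign were the NFI half-site in the upper part of each list by −log10 q (0.158), E-box CAGCTG there (1.25) and at equal GC (0.361), and ETS at equal GC (0.10). Differences whose main interval held 0 also changed sign in some settings, for AP-1 (-0.208 at equal GC to 1.46), STAT, SOX, FOX, NF-kB, the NFI full site and the RFX half-site. The net count of Slc24a3 within 10 kb was -1. The cause of these changes was not tested. Unknown depth and single merged lists limit every count of weak peaks.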
